A study of Mus musculus with 18 samples.

Results

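The cytosolic ribosomal protein genes encode the proteins of the small and large subunits of the ribosome. They were chosen by name: protein-coding genes whose mouse symbol begins with Rps or Rpl and a number, with Rpsa, Rplp0, Rplp1 and Rplp2 added, without the Rps6k kinases and without pseudogenes, and reaching 1 or more in no fewer than 3 libraries. Of 32328 genes in the deposited table, 86 were protein-coding genes of that name and 83 reached the value, 34 of them named for the small subunit and 49 for the large subunit. They comprise 77 core ribosomal proteins and 6 others, the paralogs Rps27l, Rps27rt, Rpl22l1 and Rpl36al, the biogenesis factor Rpl7l1, and Rps19bp1, which binds a ribosomal protein and is not one itself. The 3 genes that did not reach the value were Rpl3l, Rpl10l and Rpl39l, with 1, 0 and 1 libraries at 1 or more, and the least detected gene inside the rule was Rpl27, with 5 such libraries.

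The series profiled neutrophils from 6 tissues of adult C57BL/6 mice aged 8 to 12 weeks, with 3 libraries for each tissue: Blood, bone marrow (BM), Intestine (labelled colon), Lung, Skin (labelled ear) and Spleen. All cells were sorted as Ly6G+ cells with CD45, CD11b and DAPI, at a typical purity above 95% per the labels' protocols, and no library is labelled with a treatment or an engineered allele. The labels do not say whether the 3 libraries of a tissue came from separate or pooled animals, so the p-values measure only the spread between these libraries. Each value is an estimated read count scaled to the library's size and not to gene length, called a scaled count here.

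Ribosomal proteins are made in balanced amounts and assembled with ribosomal RNA in the nucleolus. Their mRNAs begin with a run of pyrimidines, the 5-prime TOP motif, through which mTOR signalling and the RNA-binding protein Larp1 govern their translation, and Myc drives transcription of many of the genes. Maturing neutrophils shut down much of their ribosome production in the marrow and circulate as non-dividing cells with little cytoplasmic RNA.

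Stretches around the annotated start show pyrimidine runs near it in 5 of the genes the results turn on, chosen after their values were seen. Each runs from 50 bases before to 20 bases after the RefSeq start (GRCm38.p6), 5′ to 3′ on the gene's strand, and capitals mark the longest run of C and T within 20 bases of the start, or the first where 2 are equally long, as in Rps27rt, whose other run begins at position 1.
Rpl4, chr9:64173337-64173406, plus strand: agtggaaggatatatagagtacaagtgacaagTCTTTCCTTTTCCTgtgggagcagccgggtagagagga
Rps9, chr7:3703991-3704060, plus strand: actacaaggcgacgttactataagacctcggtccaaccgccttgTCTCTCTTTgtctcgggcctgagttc
Rps27rt, chr9:114982720-114982789, minus strand: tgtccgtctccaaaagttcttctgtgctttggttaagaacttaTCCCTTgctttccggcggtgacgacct
Rps3a1, chr3:86142649-86142718, minus strand: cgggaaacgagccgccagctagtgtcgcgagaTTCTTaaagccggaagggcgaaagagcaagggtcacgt
Rps4x, chrX:102189372-102189441, minus strand: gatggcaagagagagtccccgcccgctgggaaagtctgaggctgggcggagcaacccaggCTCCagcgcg
The run was 14 bases in Rpl4, 9 in Rps9, 6 in Rps27rt, 5 in Rps3a1 and 4 in Rps4x. A marked run need not be the TOP motif. It lay before the start in Rpl4 (-18 to -5), Rps3a1 (-18 to -14) and Rps27rt (-7 to -2). In Rps4x it lay after the start (11 to 14). A promoter entry was found for 63 of the 83 genes. For these members the listed start nearest the annotated gene start was used, which lay up to 3553 bases from it (Rps24). For all promoters it was the first listed start of each gene. The shares below therefore compare starts chosen in different ways. A run of at least 8 pyrimidines lay within 20 bases of the start in 44.4% of them and in 15.9% of all 27025 promoters. That window was widened after a first result was seen: counting runs that touch the 3 bases on either side of the start, the shares were 28.6% and 7.35%. Over the whole 300-base promoter and on both strands, the ETS-type letters CCGGAAG were found in 38.1% of the members against 9.12% of all promoters, AAGATGG, the YY1-type letters, in 14.3% against 6.48%, GGGCGG in 61.9% against 35.9%, and TATAAA in 9.52% against 14.2%. These matches describe letters and not binding sites.

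The libraries differed in what else they held. The summed scaled counts of 15 neutrophil markers, among them S100a8 and Ly6g, ranged from 57212 to 75021 in BM, 33854 to 36324 in Blood, 6311 to 19248 in Lung and 12381 to 16818 in Spleen, but only 1040.2 to 1658 in Intestine, where all 15 were below Blood by the test, and 1435 to 20412 in Skin. The 10 fibroblast and muscle markers summed to 6483 to 13906 in Intestine and 61.4 to 80.8 in Blood. B cell markers summed to 2225 to 4195 in Spleen against 74.9 to 141 in Blood, endothelial markers to 789 to 2961 in Lung against 33.1 to 57.1, and epithelial markers to 590.3 to 10599 in Skin against 1.42 to 3.75. Macrophage markers summed to 744 to 1361 in Intestine and 881 to 2640 in Skin against 170 to 216 in Blood. Estimated counts totalled from 2935580 in Lung replicate 1 to 12087900 in Spleen replicate 2. Skin replicate 2 stood apart, with 9158 genes above the floor (the value given to 0 counts, here within 0.01 of an estimated count) against 11833 to 16058 in the other libraries, and with 22 members at the floor. In such bulk samples, fewer cells of a type and less RNA per cell cannot be told apart.

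By tissue mean, the summed scaled counts of the members were lowest in Blood and BM. The 83 genes summed to 4055, 4194 and 4045 scaled counts in the 3 Blood libraries and to 3314, 5404 and 4062 in BM. In Intestine the sums were 10386, 9176 and 8625, and in Skin 8202, 14077 and 5470. The Spleen libraries held 6329, 5303 and 10053 and the Lung libraries 8822, 6863 and 4828. Every Spleen, Lung, Intestine and Skin library lay above every Blood library, while the BM libraries lay on both sides of Blood. As a percent of all estimated counts the order was not the same. The share was 0.413% to 0.424% in Blood and 0.371% to 0.514% in BM, and Skin, at 0.492% to 0.572%, overlapped BM. Lung, at 0.458% to 1.15%, overlapped BM as well, and the share was 0.603% to 1.22% in Spleen and 0.989% to 1.11% in Intestine. A single predicted gene, Gm10800, took 11.2% to 23.7% of the Skin counts and 0.420% to 3.60% in the other tissues, and mitochondrial genes took 8.24% to 23.2% in Intestine and at most 2.87% elsewhere; their part in these shares was not tested.

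**Figure D1:**
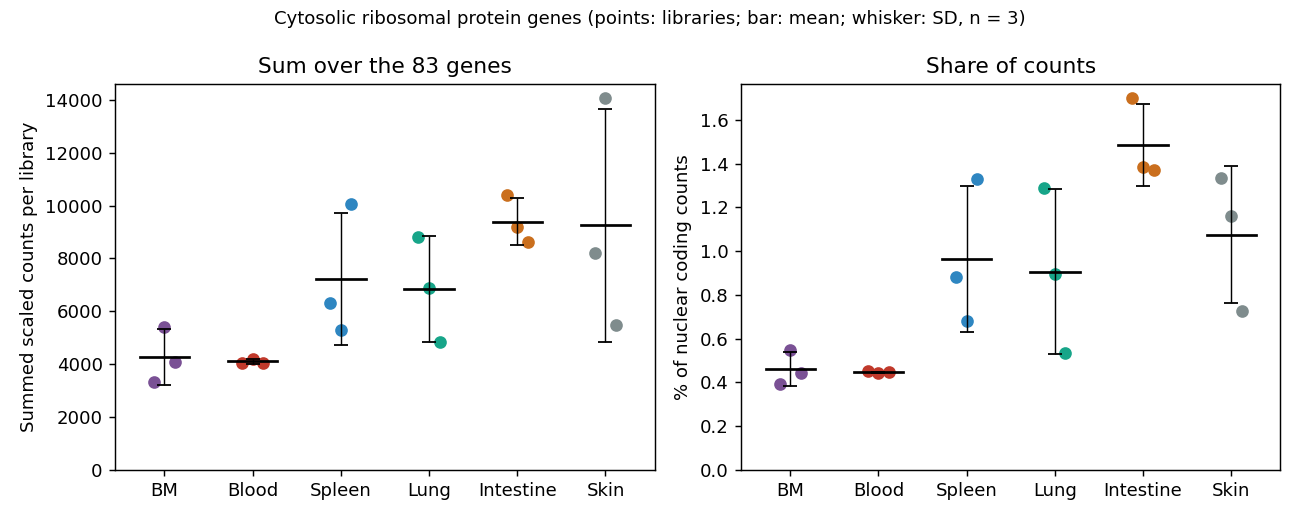
Summed scaled counts of the 83 genes (left) and their share of the counts of named nuclear coding genes (right), by tissue; points are libraries, bars are means and whiskers are SD (n = 3). Blood libraries lie close together at 4045 to 4194, and those of Skin spread from 5470 to 14077.

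Expressed as a share of the counts of named nuclear coding genes, the group took 0.446% ± 0.00299 (SD, n = 3) in Blood and 0.460% ± 0.0798 in BM. Intestine had 1.48% ± 0.187 and Skin 1.07% ± 0.314. The share was 0.906% ± 0.378 in Lung and 0.963% ± 0.333 in Spleen. In the order of the means, from Blood through BM, Lung, Spleen and Skin to Intestine, neighbouring tissues overlapped, except that each Intestine library (1.37% to 1.70%) was above each Skin library (0.726% to 1.34%). Within Lung, the library with the highest share, replicate 1 at 1.29%, also had the fewest neutrophil marker counts (6311) and the most endothelial marker counts (2961), and replicate 3, at 0.532%, had the most (19248) and the fewest (789). Fibroblast and muscle markers (1345 in replicate 1, 209 in replicate 3) and B cell markers (938 and 253) differed in the same direction as the endothelial ones. The part of these other cells in the result was not tested.

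Both subunits were higher in Intestine than in Blood. Small-subunit genes summed to 2204 ± 85.7 (SD, n = 3) scaled counts in Blood and 4817 ± 510 in Intestine, and large-subunit genes to 1894 ± 5.09 and 4579 ± 416. The ratio of the small-subunit to the large-subunit sum was 1.16 in Blood, 1.05 in Intestine and 0.858 in Skin. Entries of such names that are pseudogenes or not protein-coding, some of which copy a member's sequence, summed to 711.5 ± 59.95 in Blood and 1802 ± 275 in Intestine, so reads may have been split between a gene and its copies.

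Levels differed widely between the members. Divided by coding length, Rpl41, the shortest ribosomal protein, was highest at 1059 scaled counts per kb of coding sequence over all libraries, followed by Rps3 at 982, Rps4x at 601.1, Rps9 at 588 and Rpl9 at 559.8. The median member was at 94.8 and the lowest at 4.0, and the 5 highest members made up 28.6% of the summed level per kb. Reads can also fall outside the coding sequence, so this division raises genes with a short one. The coding sequence of Rpl41 has 75 bases, and its median scaled count over the libraries was 69.8, beside 552.9 for Rps3. Rps3, a protein of the mRNA entry channel with a role in DNA repair, had the highest mean scaled count over all libraries, 715.8, with 522, 493 and 527 in Blood and 1047, 961 and 795 in Intestine. These Intestine values lay above those of Blood without overlap, but the difference of 0.85 ± 0.42 (SE; adjusted p = 0.145) on the log2 scale did not pass the test.

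Most single members did not pass the test between tissues. An F test of any difference between the 6 tissues called 15 of the 83 members (18.1%), against 31.9% of all 16157 genes tested. Among the called members were Rpl4, Rps4x, Rplp1, Rps27rt, Rps3a1, Rpl7l1, Rps2, Rpl31, Rps16, Rps25, Rpl13 and Rpl15. In this fit the share is below the background of all genes. The count was 33 without Skin replicate 2, 29 without Skin replicate 1, 23 without Skin replicate 3, and 36 without the Skin libraries. The share of all genes called was then 40.4%, 40.4%, 38.5% and 40.6% in the same order. The members' share was near that of all genes without Skin replicate 2 and below it without Skin replicate 1 or 3. Without the Skin libraries it was above. With a weight per library, where 51.4% of all genes were called, the members' share was also above.

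**Figure D2:**
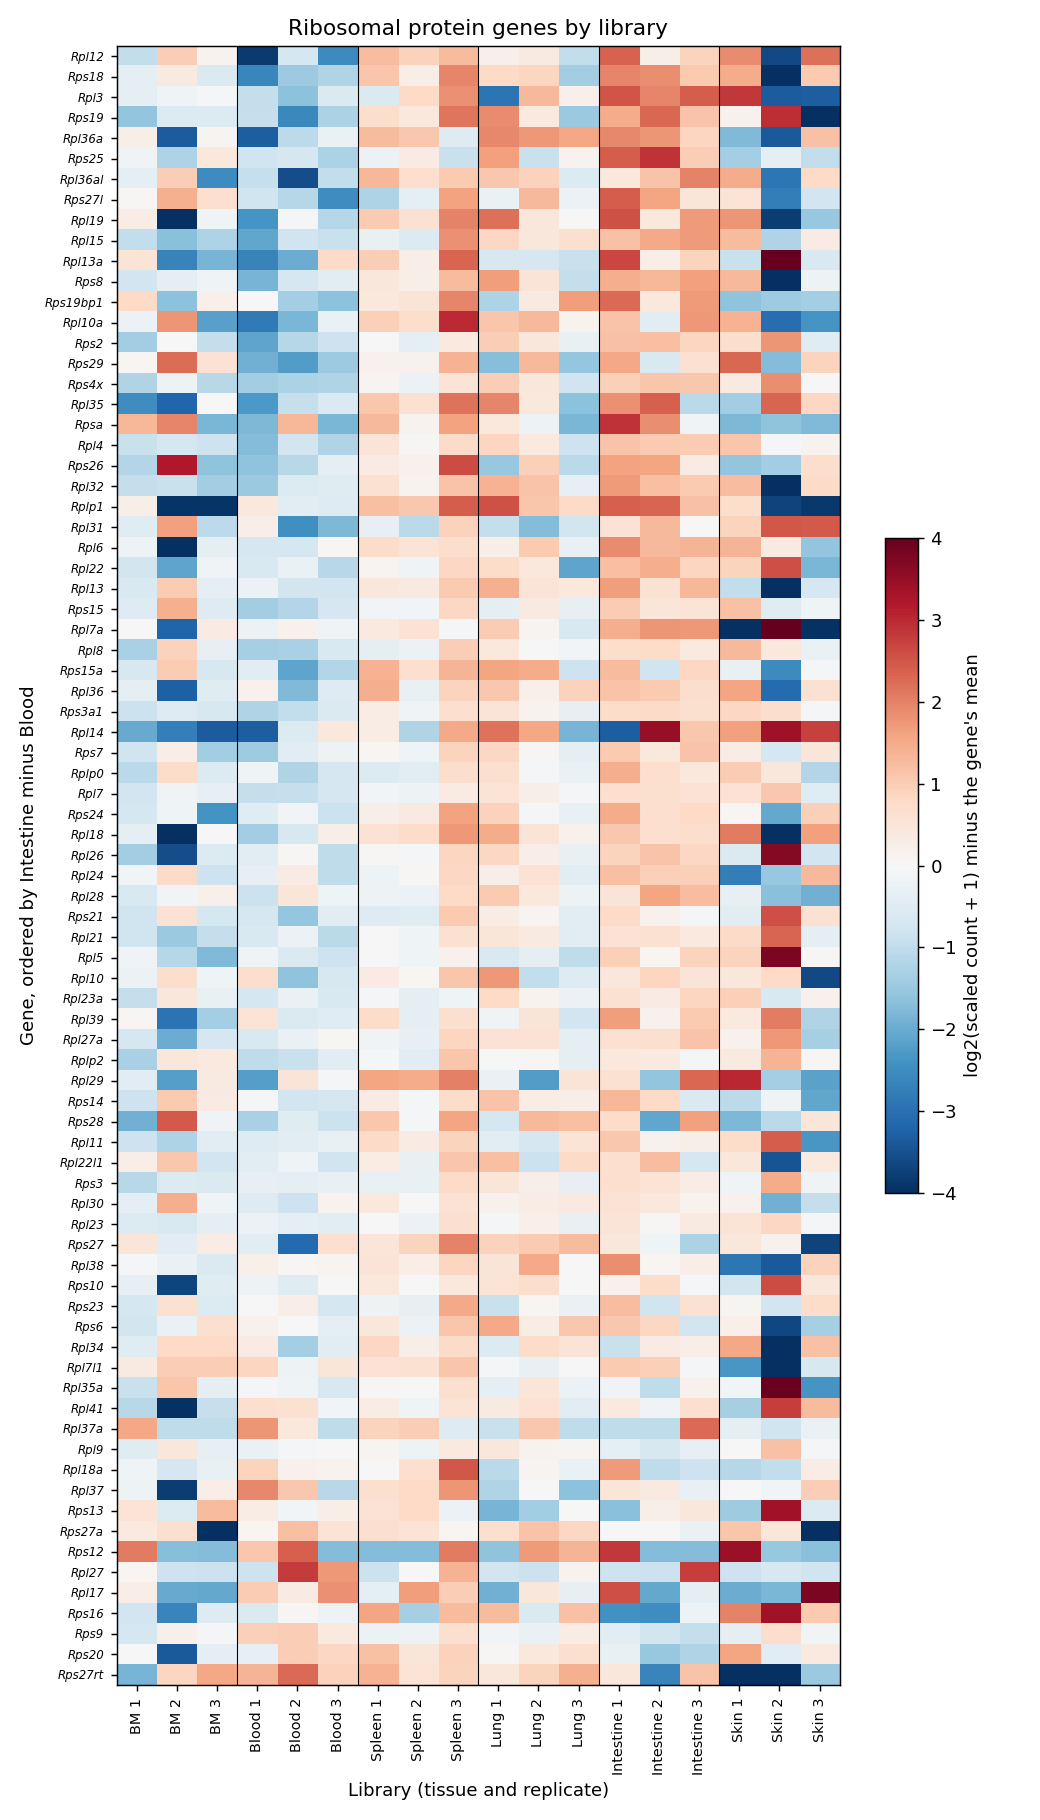
Log2(scaled count + 1) of each member in each library minus the gene's mean over the 18 libraries, for 80 of the 83 members, with genes ordered by their Intestine minus Blood difference; red is higher and blue lower, and the colours end at 4 on either side. Blood columns are mostly blue in the upper rows, and Skin replicate 2 holds the most extreme colours in both directions.

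Intestine against Blood held the most called members. Of the 83, 18 rose (21.7%; all genes, 15.8%) and 1 fell (all genes, 10.1%), and 64 did not pass the test. The median member's log2 difference was 1.42, beside 0.12 over all genes tested, and 68 members had a positive difference. In 46 members (55.4%) every Intestine library was above every Blood library, against 26% of all genes. By the fitted test the members' share is near the background. It was 10 called members without Intestine replicate 1, 12 without Intestine replicate 3 or Blood replicate 2, and 32 without Skin replicate 2, in place of 19; of all genes, 22.0% were called without Intestine replicate 1 and 34.8% without Skin replicate 2, in place of 26%. Against the mean of the other 5 tissues 8 members rose in Intestine (9.64%; all genes, 15.2%) and 0 fell (all genes, 8.18%; 2 at an unadjusted p under 0.05), a share below the background. Among those were Rpl3, Rpl4, Rpl15, Rps2, Rps3a1, Rps4x and Rps25. Without Intestine replicate 1 or 2, 1 member rose, and without Intestine replicate 3, 2 rose and 1 fell. Without Spleen replicate 1, 5 rose. Without Skin replicates 1, 2 and 3, 15, 24 and 11 rose, and 2 fell each time. Of all genes, 23.4% were called in the fit reported, and 17.9%, 15.6% and 16.1% without Intestine replicates 1, 2 and 3. That share was 29%, 30.8% and 26% without Skin replicates 1, 2 and 3. The fibroblast and muscle markers also separate Intestine from Blood. Within Intestine, replicate 1 had the fewest such counts (6483, against 13906 and 11897) and the highest member sum (10386, against 9176 and 8625). It also had the fewest endothelial marker counts (572, against 1565 and 833). The same library had the most macrophage (1361, against 744 and 1246) and epithelial marker counts (337, against 33.3 and 303). Its B cell (254, against 80.8 and 183) and erythroid marker counts (2067, against 109 and 95.7) were the highest as well. The part of these markers was not tested.

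Among the small-subunit members that rose, Rps4x, the X-linked form of a protein of the subunit's body, had 143, 157 and 163 scaled counts in Blood. It had 744, 819 and 803 in Intestine, a log2 difference of 2.34 ± 0.49 (SE; adjusted p = 0.00116). All Intestine libraries were above all Blood libraries, and Blood lay below all 15 other libraries (-1.56 ± 0.38 SE, adjusted p = 0.0204 against the mean of the other 5 tissues). Rps2, which lies near the mRNA entry channel, had 29.8, 59 and 72.6 in Blood and 298, 299 and 239.6 in Intestine (log2 difference 2.44 ± 0.56 SE, adjusted p = 0.00275). Rps3a1 had 132, 156 and 207 in Blood and 508, 529.8 and 478 in Intestine (1.63 ± 0.38 SE, adjusted p = 0.00317). In both genes the groups did not overlap.

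Of the large-subunit members, Rpl4, which lines part of the exit tunnel for the new protein, had 89.7, 177 and 131 scaled counts in Blood and 660.4, 617 and 608 in Intestine. Its log2 difference was 2.29 ± 0.45 (SE; adjusted p = 0.000658), with the groups well apart. Rpl3, which reaches towards the peptidyl transferase centre, had 16.9, 10.1 and 22.6 in Blood and 199, 133 and 186 in Intestine (3.36 ± 1.204 SE, adjusted p = 0.044), a call lost in 14 of 25 alternatives. Its other tissues were uneven: Skin had 248, 2.49 and 2.54 and Lung 3.58, 84 and 39.2. Other members that rose included Rpl7, Rpl8, Rpl12, Rpl15, Rpl36a, Rpl36al, Rps7, Rps18, Rps25, Rps27l and Rps19bp1. The calls were lost in 12 of 25 alternatives for Rpl36a, 13 for Rpl36al, 10 for Rps19bp1 and 6 for Rps27l.

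**Figure D3:**
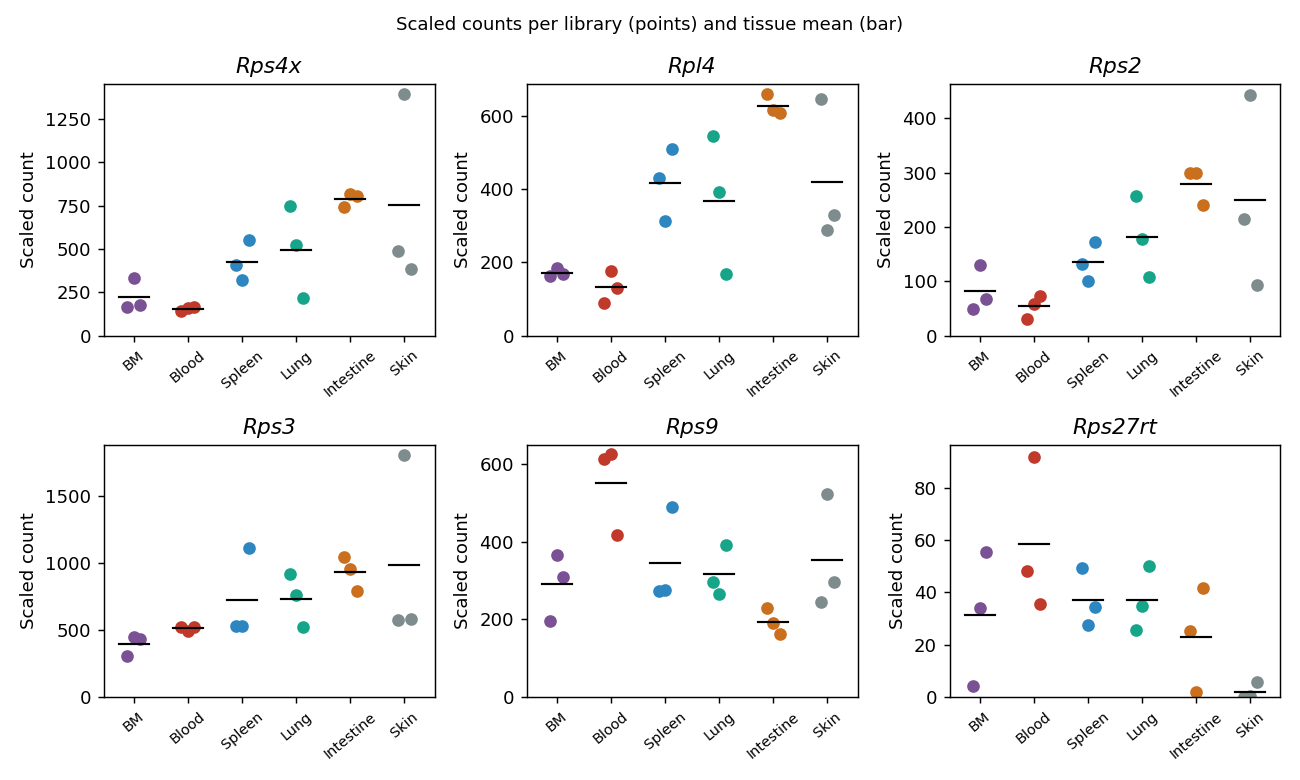
Scaled counts of 6 members by tissue; points are libraries and bars are tissue means (n = 3). Rps4x, Rpl4 and Rps2 are lowest in Blood and higher in Intestine, and Rps9 is highest in Blood, while Rps27rt is near 0 in Skin.

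Rps9, a protein of the small subunit that binds ribosomal RNA early in assembly, went the other way. It had 612, 626 and 417 scaled counts in Blood and 229.6, 189.7 and 162 in Intestine, and had a log2 difference of -1.50 ± 0.41 (SE; adjusted p = 0.00932). Its Blood libraries were above all Intestine libraries, and BM had 196, 367 and 309. Measured relative to the median member of each library, Rps9 differed between tissues (F test, adjusted p = 0.00466), one of 6 members (7.23%; all genes, 37.7%) that did. The others were Rps27rt, Rpl7l1, Rplp1, Rps16 and Rpl31. Subtracting this median takes the members' shared shift out of the members and puts its reverse into all other genes. The share of members and that of all genes are therefore not comparable here. No gene annotated on either strand overlaps Rps9. The number of members called relative to the median member was 15 without Skin replicate 2 and 13 without Skin replicate 1. It was 11 without Skin replicate 3 and 11 without the Skin libraries. Of all genes, 44.3%, 45.6% and 45.4% were called without Skin replicates 1, 2 and 3, and 49.2% without the Skin libraries.

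In Blood against the mean of the other 5 tissues, 6 members fell (7.23%; all genes, 2.79%) and 0 rose (all genes, 2.43%), with 19 lower and 3 higher at an unadjusted p under 0.05. Among them were Rps3a1, Rps4x, Rpl4 and Rps2, and 5 of the 6 were of the small subunit. The median member stood at -0.72 against -0.05 for all genes. In 3 members, Rps4x and Rps15 among them, Blood lay below all other libraries (3.61%; all genes, 0.47%). There were 0 calls when any 1 Blood library was left out, 3 without Lung replicate 2 or Spleen replicate 3, and 18 without Skin replicate 2. Of all genes, 5.21% were called either way in the fit reported, 0.812% to 1.87% without 1 Blood library, and 13.4% without Skin replicate 2. That share was 3.64% without Lung replicate 2 and 4.08% without Spleen replicate 3. Without the Intestine libraries, an alternative chosen after the data were seen, 0 members were called (all genes, 0.98%). Erythroid markers summed to 2912 to 8902 in Blood and 80.9 to 118 in BM, and their part in the result was not tested.

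Between BM and Blood 0 of the 83 members were called (all genes, 0.204%), with 6 at an unadjusted p under 0.05, and the median difference was 0.25 beside 0.00 for all genes. Against the mean of the other 5 tissues 2 members fell in BM (2.41%; all genes, 2.4%) and 0 rose (all genes, 1.83%), with 19 lower and 0 higher at an unadjusted p under 0.05. Rplp1, an acidic stalk protein that helps recruit elongation factors, had 17.6, 0.0572 and 0.0485 scaled counts in BM, where 2 of the 3 libraries were at the floor. It had 20.2, 10.5 and 10.2 in Blood and 83, 78.6 and 34.8 in Intestine, and a log2 difference of -3.04 ± 0.87 (SE; adjusted p = 0.0495) for BM against the others. Rpl41 had 25.2, 2.68 and 28.8 in BM and 89.9, 84.7 and 51.1 in Blood (-2.39 ± 0.65 SE, adjusted p = 0.0373 for BM against the others). The call was lost in 15 of 26 alternatives for Rplp1 and in 13 of 26 for Rpl41. The low BM libraries of Rpl41 overlapped Skin, at 21.4, 384 and 135. There were 0 calls without BM replicate 2 or 3, Blood replicate 1 or 2, Intestine replicate 3, Lung replicate 1 or 2, or any one Spleen library. The count was 1 without Blood replicate 3 or Intestine replicate 2, and 4, 15 and 7 without Skin replicates 1, 2 and 3. Of all genes, 4.23% were called in the fit reported, and 7.71%, 12.3% and 8.45% without Skin replicates 1, 2 and 3. That share was 0.951% and 1.44% without BM replicates 2 and 3, and 3.21% to 3.64% in the other alternatives named.

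In Spleen and Lung most members had a positive difference from Blood, and none passed the test. In Spleen 76 of the 83 differences were positive and 7 negative, and in Lung 68 were positive and 15 negative. In Spleen against Blood 0 members were called (all genes, 0.607%), with 19 higher and 0 lower at an unadjusted p under 0.05, and the median difference was 1.04 beside 0.03 for all genes. All Spleen libraries were above all Blood libraries in 40 members (48.2%; all genes, 13.5%). In Lung against Blood 0 were called (all genes, 6.29%), with 15 at an unadjusted p under 0.05, and the median was 0.76 beside 0.03. There 25 members (30.1%; all genes, 17.6%) did not overlap with Blood and were higher, and 2 (2.41%) were lower. With a weight per library, limma called 23 members in Spleen (22 higher, 1 lower) and 27 in Lung (25 higher, 2 lower) against Blood. The share of all genes called was then 10.7% and 28.6%, and the members' share was above it in both tissues. Without Skin replicate 2 the counts were 3 and 9, with 1.39% and 10.9% of all genes. Rps4x had 408, 322 and 552 in Spleen and 749.9, 522 and 218 in Lung. Rpl4 had 431, 314 and 509 in Spleen and 546, 391.9 and 169 in Lung. The Lung values of both fell in the same order as the summed endothelial markers of the 3 libraries. The fibroblast and muscle markers (1345, 842 and 209), B cell markers (938, 776 and 253) and epithelial markers (123, 103 and 74.2) fell in that order too. The neutrophil markers went in the reverse order. The part of these markers in the result was not tested. Against the mean of the other 5 tissues, 0 members were called in Spleen (all genes, 1.44%) and 0 in Lung (all genes, 3.42%), with 4 and 2 at an unadjusted p under 0.05.

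**Figure D4:**
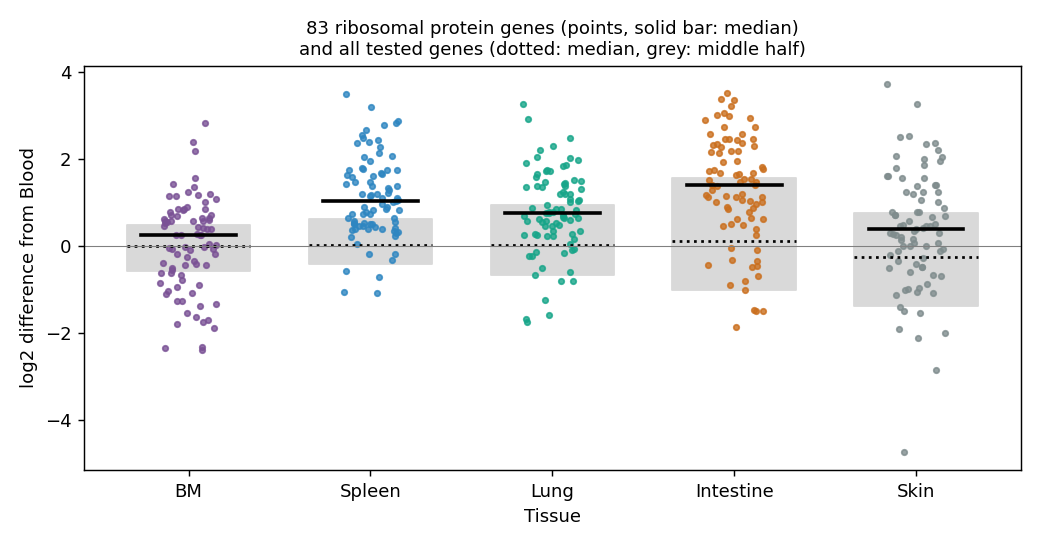
Log2 difference from Blood of each of the 83 members (points; solid bar, median) and of all 16157 genes tested (dotted line, median; grey, from the lower to the upper quartile), by tissue. The members' median is 1.42 for Intestine, 1.04 for Spleen, 0.76 for Lung, 0.40 for Skin and 0.25 for BM.

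Skin libraries differed most from each other: over the members, the root-mean-square log2 difference between 2 libraries was 2.22 to 3.14 in Skin and 0.663 to 2.11 in the other tissues. Against Blood 8 members rose (9.64%; all genes, 5.64%) and 2 fell (2.41%; all genes, 10.4%). Against the mean of the other 5 tissues 4 rose (4.82%; all genes, 5.9%) and 8 fell (9.64%; all genes, 12.9%). Skin replicate 2, with the smallest effective library, held the highest value of 25 members and the floor value of 22. Of the 83, 16 (19.3%; all genes, 16.5%) were higher in every Skin library than in every Blood library. On simulated libraries in which Skin was set to vary more, the Skin comparison called many genes left unchanged, unlike the other 5 tissues. That spread was set by hand and not taken from these data. It cannot show how many of the Skin calls here are false, and these calls should be read with caution. With a weight per library the Skin calls came to 1 against Blood (all genes, 7.1%) and 0 against the others (all genes, 1.52%). The count against Blood was 6 without Blood replicate 1 or 2 and 17 without Skin replicate 2 or 3. Of all genes, 8.66% and 8.7% were called without Blood replicates 1 and 2, and 19.5% and 22.1% without Skin replicates 2 and 3. In the fit reported that share was 16.1%. Against the others 6 members were called without Skin replicate 2 (all genes, 15%, in place of 18.8%). Epithelial markers were higher in the Skin libraries than in Blood, and their part was not tested. Rpl5, which with Rpl11 binds Mdm2 and links ribosome assembly to p53, had 109, 815 and 60.3 scaled counts in Skin and 52.6, 39.2 and 32.7 in Blood. Rpl13a, a large-subunit protein that also takes part in a translational silencing complex, had 2.67, 126 and 3.44 in Skin. In both, 1 Skin library is far above the other 2. Rpl31, called higher in Skin, had 75.9, 233 and 227 in Skin against 48.9, 6.64 and 11 in Blood (3.27 ± 0.80 SE, adjusted p = 0.00845), and all its Skin values were above those of Blood. Rps16 had 30.1, 80.4 and 15.5 in Skin and 4.33, 7.25 and 5.94 in Blood.

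The paralogs and related genes had patterns of their own. Rps27rt, a copy of Rps27 with 1 annotated exon, had 48, 91.7 and 35.5 scaled counts in Blood and 0.0736, 0.216 and 5.83 in Skin (-4.73 ± 0.98 SE, adjusted p = 0.00287). Its groups did not overlap. Rps27 had 17.4, 1.84 and 38.1 in Blood and 33, 26.6 and 0.892 in Skin; near-identical copies can share reads. Rps27l had 3.77, 2.78 and 0.469 in Blood and 42.8, 23.4 and 10.5 in Intestine (2.95 ± 0.97 SE, adjusted p = 0.0281). Per kb of coding sequence, Rps27l stood at 9.28 and Rps27 at 75.7 in Blood, and at 102 and 83.1 in Intestine. Rpl22l1 was at 24.2 per kb in Blood and 53 in Intestine, and its partner Rpl22 at 114 and 405. Neither passed the test in that comparison. Rpl7l1 fell in Skin, with 4.24, 0.216 and 15.7 scaled counts against 46.6, 21.8 and 35.9 in Blood (-2.85 ± 0.75 SE, adjusted p = 0.0129).

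Several well-studied members did not pass the F test between tissues. Rps6, the substrate of the S6 kinases, had 54.6 to 80.9 scaled counts in Blood and 42.7 to 153 in Intestine (F test, adjusted p = 0.110). It was called lower in Skin, with 82.1, 4.81 and 28.3 (-1.91 ± 0.58 SE, adjusted p = 0.0254 for Skin against the others). Rps19, the gene most often mutated in Diamond-Blackfan anaemia, had 4.63 to 16.8 in Blood and 73 to 165 in Intestine, with adjusted p = 0.0574 for Intestine against Blood. Rplp0, a stalk protein often used as a reference gene, had 26.5 to 55.9 in Blood and 84 to 174 in Intestine (1.53 ± 0.64 SE, adjusted p = 0.0818). Rpsa, also known as the laminin receptor, was at the floor in 2 Blood libraries. The ubiquitin fusion Rps27a had 27.3 to 59.98 in Blood and 21.5 to 26.1 in Intestine, below Blood in every library, and did not pass (-0.68 ± 1.11 SE, adjusted p = 0.703). Rpl10, which joins the large subunit late in its assembly, had 16.7 to 87 in Blood and 73.4 to 97.6 in Intestine, and the groups overlapped. Rpl11, the partner of Rpl5, had 43.8 to 51.2 in Blood and 70.4 to 134 in Intestine without overlap. Rplp2, the other acidic stalk protein, had 23.9 to 35.5 in Blood and 46.5 to 65.9 in Intestine, also without overlap, and neither passed the test. Rpl39, at the exit of the tunnel, had 21.3 to 47.6 in Blood and 36.5 to 103 in Intestine. Rpl38, needed for translation of Hox mRNAs in the embryo, had 12.1 to 13.3 in Blood and 0.684, 0.216 and 23.1 in Skin (-2.14 ± 0.71 SE, adjusted p = 0.0394 for Skin against the others), a call lost in 15 of 25 alternatives. By tissue mean, 37 of the 83 members were highest in Intestine and 26 in Skin, and 35 were lowest in Blood, 23 in BM and 14 in Skin. Of all genes tested, 27.0% were highest in Intestine and 21.9% in Skin, and 17.6% were lowest in Blood, 16.6% in BM and 22.2% in Skin. The members with the largest F test p included Rps12, Rpl35a, Rpl37a, Rps23 and Rpl34.

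Medians for Intestine against Blood were also taken by features that the naming rule did not use. A snoRNA gene lies inside 30 members, whose median log2 difference was 1.14, beside 1.48 in the other 53. It was 1.44 in the 28 members with a run of at least 8 pyrimidines and 1.38 in the 35 without. It was 1.59 for the small subunit and 1.38 for the large. Ranked by mean scaled count, the 28 highest members had 10 of the 18 that rose, the next 28 had 3 and the 27 lowest had 5. A gene on the other strand overlaps 24 members, and since use of strand in counting is not given in the sources used here, reads of those pairs cannot be told apart.

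Other genes of the translation machinery were examined as lists. Of 14 tested elongation factors and other TOP mRNAs, 5 rose (35.7%; all genes, 15.8%) and 0 fell (all genes, 10.1%) in Intestine against Blood, with a median log2 difference of 1.53 beside 0.12 for all genes. Eef1a1, which brings charged tRNA to the ribosome, had 595, 691 and 875 scaled counts in Blood and 3484, 3194 and 3002 in Intestine (2.18 ± 0.36 SE, adjusted p = 0.000133). Eef2, the translocase, had 336, 418 and 469 in Blood and 1256, 1528 and 1222 in Intestine. Npm1, a nucleolar chaperone of ribosome assembly, had 18.7, 31.7 and 35.5 in Blood and 345, 335 and 396 in Intestine (3.65 ± 0.62 SE, adjusted p = 0.000192). Tpt1 and Pabpc1, both TOP mRNAs, gave log2 differences of 0.01 and -0.36 and did not pass. Of 28 initiation factors, 5 rose (17.9%, near the background), Eif3a, Eif3b, Eif3e, Eif4g1 and Eif1ax, and Eif1 fell. Of 59 ribosome biogenesis factors, 16 rose (27.1%) and 0 fell (median 1.24), among them Ncl and Fbl. Of the 3 ribosomal proteins outside the naming rule, Rack1 rose, with 70.1, 121 and 90.7 in Blood and 487, 380.5 and 266 in Intestine, and Fau did not pass.

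Of 30 genes of the mTOR pathway and TOP regulation, 3 rose (Tsc2, Rptor and Larp1) and 3 fell (Sesn2, Eif4ebp1 and Lamtor4) in Intestine against Blood, 10.0% in each direction, where 15.8% of all genes rose and 10.1% fell. These shares are near or below the background. Larp1 had 25, 25.7 and 16.8 scaled counts in Blood and 114, 60.1 and 84.4 in Intestine, and Eif4ebp1, an inhibitor of cap-dependent initiation, had 117, 85.9 and 110.1 in Blood and 26.3, 10.8 and 33.3 in Intestine. Of 14 genes of the Myc network, Mycl and Mycn rose (14.3%) and Max, Mxd1 and Mxi1 fell (21.4%), few genes to set beside the background. Mxd1, a Myc antagonist, had 1358, 1132 and 1309 in Blood and 43.6, 85.4 and 135 in Intestine, while Myc was at the floor in all 3 Blood libraries. Of 76 mitochondrial ribosomal proteins, 7 rose (9.21%) and 2 fell (2.63%), both below the background, with a median of 0.27. The fibroblast and muscle markers that were higher in Intestine stand beside all of these list results, and their part was not tested.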

How the data were processed

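The deposited table holds a linear signal for 32328 genes in 18 libraries. CASAVA, RSEM 1.3.1 and limma on mm10 are named in the submitters' processing notes, with no order or annotation. The name says TPM, but as read from the values each deposited signal is an estimated count plus 0.5, divided by the effective library plus 1 and multiplied by 1e+06, with no gene length. The design had assumed TPM; the same test on log2(value + 1) was kept. Total RNA had been amplified (Ovation kit) and sequenced from a single end to 61 nt, per the labels' protocols, and amplification from little RNA can add spread to low genes. Symbols, positions and coding lengths came from GENCODE vM21, which named 31820 genes.

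The 16157 genes that reached 1 in 3 or more libraries were fitted with limma 3.58.1 in R 4.3.3: 6 group means, a trended prior, 12 residual degrees of freedom, and p-values adjusted across every tested gene (Benjamini-Hochberg, threshold 0.05). The fit was checked on simulated data, where it called few unchanged genes except in Skin, which was simulated with more spread and where unchanged genes were called in large number. Log2 differences understate changes of low genes. The members and lists were chosen with earlier results of these data known. Named members were a fixed list of well-known ones, up to 4 per direction and comparison without overlap, and those with the smallest and largest F test p; from each list, the 3 genes with the smallest F test p and a fixed set. Rps7, Rps18, Rps25, Rpl7, Rpl8, Rpl9, Rpl12, Rpl13, Rpl15, Rpl27, Rps15 and the list genes named without values complete the counts and were named after their values were seen. Coding length was adopted after transcript lengths had been tried in 3 other ways and looked implausible for single members, and the printed promoter stretch was also lengthened after a first look. Alternatives were another pseudocount, no filter, 2 scalings, library weights, a replicate block, and leaving out libraries. Same-numbered libraries did not deviate together (median r -0.003 over 45 pairs). This cannot show whether libraries of different tissues shared an animal or day. In the column headers, Blood replicate 3 carries the letter D and replicate 3 of the other tissues carries C. The headers of Blood replicate 2 and Skin replicate 1 also end in rep. The replicate block and this check used the numbers and not the letters. Proteins were not used here, and a few single genes, which stay in all counts, are not reported here.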

Additional observations from a re-analysis of the deposited data

How the results depend on the processing

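No comparison's median member changed direction under another pseudocount, filter, scaling, weight or block, and the counts of called members moved as follows. With quantile normalization the counts were 27 for any difference between tissues (15 in the fit reported), 13 relative to the median member (6), 11 for BM against the others (2), 27 for Intestine against Blood (19), 28 for Intestine against the others (8), 3 for Lung against Blood (0), 9 for Blood against the others (6) and 8 for Skin against the others (12). With a weight per library they were 49, 30, 14, 46, 32 and 27 in the same order for the first 6, 27 for Blood and 0 for Skin against the others, 1 for Skin against Blood (10), 2 for BM against Blood (0), 23 for Spleen against Blood (0), 5 for Spleen and 1 for Lung against the others (0 each). Without the Skin libraries they were 36, 11, 16, 39, 32 and 12 for the first 6, 23 for Blood against the others, 1 for BM and 7 for Spleen against Blood. The shares of all genes were then 40.6%, 49.2%, 14.2%, 40.4%, 39.1% and 16.1% for the first 6. They were 17.1% for Blood against the others, 2.15% for BM and 2.54% for Spleen against Blood. The members' share was above that of all genes for any difference, BM and Blood against the others, and Intestine and Spleen against Blood. It was below for Intestine against the others and for BM and Lung against Blood. Without a filter on low values the counts were 10, 9, 0, 10 and 4 for the first 5, 2 for Blood against the others and 16 for Skin against the others (12). Median scaling gave 5 for Intestine, 3 for Blood against the others and 14 for Skin against Blood, and shifted the median of all genes in Skin against the others from -0.47 to 0.05. The share of all genes called was then 23.4% for Intestine and 5.47% for Blood against the others, and 14.8% for Skin against Blood. Without the Intestine libraries, an alternative chosen after seeing the data, the counts were 8 for any difference and 0 for both BM and Blood against the others. The shares of all genes called were then 17.7%, 1.34% and 0.98%. The replicate block gave 14 for any difference and 18 for Intestine against Blood, and no count moved by over 1.5 times; 7 of 18 libraries correlated best with their own number. Leaving out 1 library at a time gave 11 to 33 for any difference and 6 to 15 relative to the median member. Against Blood it gave 10 to 32 for Intestine, 0 to 9 for Lung, 6 to 17 for Skin, 0 to 3 for Spleen and 0 to 0 for BM. Against the others it gave 0 to 15 for BM, 0 to 18 for Blood, 1 to 26 for Intestine, 6 to 18 for Skin and 0 to 0 for Spleen and Lung. It turned the median member to -0.01 in Lung against the others, from 0.25, without Lung replicate 1. In Skin against the others that median was only 0.02 in the fit reported. It was negative in most of these fits: -0.40 without Skin replicate 1, -0.10 without Lung replicate 1 and -0.09 without BM replicate 2. It was positive in the rest, up to 0.11 without Skin replicate 3. The cause was not tested. The share of all genes called moved as well. For Intestine against Blood it moved from 26% to 46.3% with weights and 9.97% without a filter. For Skin against the others it moved from 18.8% to 1.52% and 45.3% in the same settings. It moved from 31.9% to 51.4% and 11.6% for any difference, and from 5.21% to 28.3% and 1.27% for Blood against the others. With quantile normalization it was 37.1% for any difference, and 31.3% for Intestine and 7.76% for Lung against Blood. In that setting it was 5.87% for BM, 28.4% for Intestine, 8.15% for Blood and 18% for Skin against the others. With weights it was 15.8% for BM, 35.6% for Intestine, 18% for Spleen and 10.6% for Lung against the others. Against Blood the weighted share was 28.6% for Lung, 10.7% for Spleen, 7.1% for Skin and 3.58% for BM. Without a filter it was 1.22% for BM and 9.53% for Intestine against the others. Members at the floor numbered 22 in Skin replicate 2 and 14 in BM replicate 2, and 6 in Lung replicate 1, the library with the fewest counts.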
